A study of Mus musculus with 46 samples.

Results

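Gm38319, Gm38142, Gm48611 and Gm44187 are 4 predicted mouse genes whose read counts had been seen to differ by genotype or diet in microglia of mice fed a diet without fiber. They were taken by name from a table of raw counts for 54134 genes, of which 25998 have a symbol made of Gm and a number. All 4 passed the filter on low counts, which left 12121 genes, 1331 of them with such a symbol. They had been selected on their read counts in zero-fiber libraries by genotype and diet, so each of their values that involves a zero-fiber library is given as a description, with no test. Comparisons among HAMSAB and control libraries were tested, although these libraries also served as the other side of the zero-fiber comparisons.

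Microglia are the resident macrophages of the brain. The study sequenced their RNA in 46 libraries from 5xFAD mice (labelled AD) and wild-type (WT) mice. The 5xFAD line is a transgenic model of amyloid deposition, with transgenes driven in neurons by the Thy1 promoter. The diets were zero fiber, HAMSAB (a high-amylose maize starch that carries acetate and butyrate) and control. There were 8 libraries of AD and 6 of WT mice on zero fiber, 8 of AD and 8 of WT mice on HAMSAB, and 8 of AD and 8 of WT mice on control. Each group held 4 females and 4 males, except zero-fiber WT with 4 females and 2 males. The labels give neither age, time on the diet nor the method by which microglia were obtained, and do not tie libraries to single mice. A library's name joins its diet, genotype and sex (F or M), and its replicate number follows accession order.

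GENCODE lists all 4 genes as TEC, a class of unspliced transcript models that still await an experimental test. Such models often lie in introns, the stretches that are cut out of a primary transcript and mostly broken down in the nucleus. A read in such a place can belong to a transcript of its own or to unspliced RNA of the gene around it, and a table of reads per gene does not tell these apart.

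The sequences below come from the GENCODE M21 transcripts (GRCm38) and are shown because their letters bear on where reads in these genes can be placed. Capitals mark the longest run of T in Gm38319, Gm38142 and Gm44187, and the most A-rich 20 bases in Gm48611, each read along the gene's own strand. They lie at chr1:13642706-13642748 (minus strand), chr1:86827318-86827386 (plus strand), chr9:41111923-41111992 (minus strand) and chr6:88040868-88040948 (minus strand).
Gm38319: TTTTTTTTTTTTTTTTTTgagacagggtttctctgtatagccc
Gm38142: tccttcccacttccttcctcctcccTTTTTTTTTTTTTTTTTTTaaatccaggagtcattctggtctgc
Gm48611: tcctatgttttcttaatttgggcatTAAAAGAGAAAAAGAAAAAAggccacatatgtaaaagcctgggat
Gm44187: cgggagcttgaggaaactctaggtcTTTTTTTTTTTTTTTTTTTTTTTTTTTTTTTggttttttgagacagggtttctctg

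The T runs were 18, 19 and 31 bases long in Gm38319, Gm38142 and Gm44187, and Gm48611 had no run of T longer than 6 bases. Runs of at least 10 T were found in 18.9% of the TEC models at the length of Gm38319, 40.4% at that of Gm38142, 32.5% at that of Gm48611 and 26% at that of Gm44187. After their T runs, Gm38319 and Gm44187 share the letters gagacagggtttctctg, which on the other strand form part of the mouse B1 repeat, a short interspersed element. That word, on either strand, was absent from Gm38142 and Gm48611 and present in 5.1% of 3296 TEC transcripts. Of all stretches of 50 bases, 8.22% in Gm38319, 2.94% in Gm38142 and 2.29% in Gm44187 also occurred in a transcript of another gene, on either strand. None did in Gm48611, which makes it the gene of the 4 whose reads are least open to a second placement in the annotated transcripts.

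Each predicted gene is a single exon that lies wholly inside an intron of a protein-coding gene on the same strand, with 0 bases over an exon of that host. Gm38319 (ENSMUSG00000102982.1) covers 1266 bases at chr1:13641483-13642748, in intron 3 of Lactb2, which encodes a mitochondrial endoribonuclease. Gm38142 (ENSMUSG00000102383.1) covers 3555 bases at chr1:86826101-86829655, in an intron of 32.9 kb in Dis3l2, which encodes a cytoplasmic exoribonuclease that degrades uridylated RNA. Gm48611 (ENSMUSG00000110914.1) covers 2555 bases at chr9:41109527-41112081, in the first intron, of 105.9 kb in transcript Ubash3b-201, of Ubash3b. The product of that host is a phosphatase that dampens signalling from immune receptors and receptor tyrosine kinases. Gm44187 (ENSMUSG00000108268.1) covers 1929 bases at chr6:88040539-88042467, in the first intron of Rab7, which encodes a small GTPase of late endosomes and lysosomes. It begins 2.8 kb from the host's annotated start, against 17.8 kb for Gm38319, 49.6 kb for Gm48611 and 122.3 kb for Gm38142. The introns of Dis3l2 hold 8 other predicted genes on the same strand, of which Gm38021, Gm37017 and Gm37447 passed the filter.

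**Figure D1:**
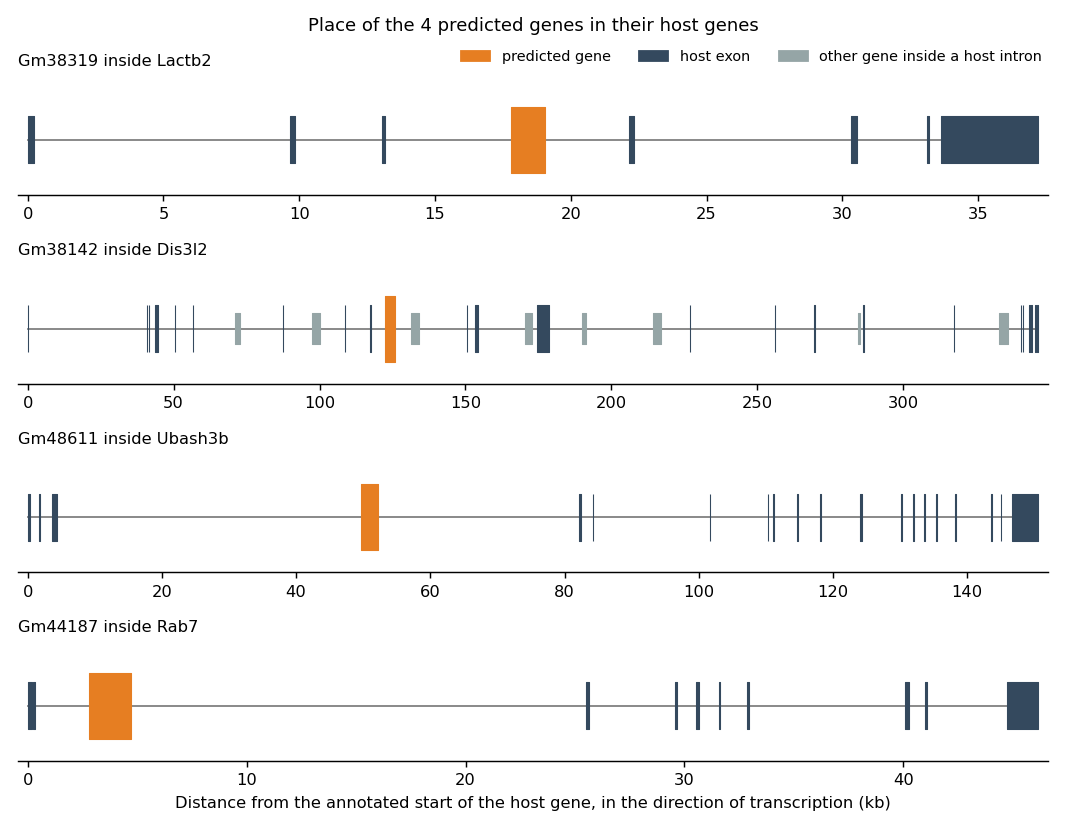
Position of each predicted gene (orange) among the exons (dark blue) of its host, in kb from the host's annotated start along the direction of transcription. All 4 lie between exons, and the introns of Dis3l2 hold 8 other predicted genes (grey).

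Total counts per library ran from 52114 to 6950429 with a median of 2344837.5, and the second lowest was 783849. The lowest belonged to zero_fiber_AD_M replicate 2, where 1 read is worth 15.5 CPM (counts per 1000000 counts) and a count of 0 allows up to 46.4 CPM. The library labelled zero_fiber_AD_F replicate 1 goes against its label: it had 0.213 CPM of Xist, the RNA of the inactive X chromosome, and 279 CPM summed over 4 Y-linked genes. The other 23 libraries labelled female had 654 to 1155 CPM of Xist. Of these, zero_fiber_AD_F replicate 2 stood apart with 39.2 CPM of the Y-linked genes beside 842 CPM of Xist, the next highest having 8.33 CPM, and the 22 male ones had 206 to 291 CPM of the Y-linked genes. The library of lowest depth and the one against its label are both AD on zero fiber, and values without them are given below. Without zero_fiber_AD_F replicate 2, the log2 fold changes of AD against WT on zero fiber were -1.24 for Gm38319, -0.95 for Gm38142, -1.05 for Gm48611 and 0.87 for Gm44187. Markers of microglia summed to between 21110 and 32890 CPM in every library, so the labelled cell type was present throughout. Markers of red blood cells, all 5 of 5 in the table, had their highest medians on zero fiber, with a lowest, median and highest sum of 21.7, 132 and 423 CPM in AD and 65.6, 121 and 684 CPM in WT libraries. They reached 1.70, 16.5 and 157 CPM in HAMSAB AD, 8.88, 34.6 and 140 CPM in HAMSAB WT, 1.97, 15.5 and 136 CPM in control AD, and 24.8, 50.3 and 103 CPM in control WT libraries, and the erythroid enzyme gene Alas2 was at 0 throughout 1 group, HAMSAB WT. Their part in the zero-fiber differences was not tested. In these bulk samples, fewer cells of a type and less RNA per cell cannot be told apart.

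Gm38319 was lower in AD than in WT mice on zero fiber. Its lowest, median and highest levels were 0, 11.5 and 16.6 CPM in the 8 AD libraries, against 12.8, 22.7 and 52.4 CPM in the 6 WT libraries. AD males had 7.40, 0, 14.6 and 14.2 CPM and WT males 52.4 and 38.6 CPM, the highest in the series. The 0 belongs to the library of lowest depth, where up to 46.4 CPM would be possible, so only the other 3 AD males can be said to lie below both WT males. Females overlapped, with 16.6, 12.2, 10.8 and 5.96 CPM in AD and 17.96, 14.5, 27.4 and 12.8 CPM in WT. The fitted log2 fold change of AD against WT was -1.23 (SE 0.22), where 0.00825% of all genes tested passed an adjusted p of 0.05, and -1.35 without the library of lowest depth and the one that goes against its label. Leaving out any 1 of the 14 libraries gave values between -1.37 and -1.11. Titles carry a number, below 2900 in some libraries and higher in others, whose meaning is not given. The difference in mean log2 CPM, without the library of lowest depth, was -1.10 below 2900 (3 against 4 libraries) and -0.82 at 2900 and above (4 against 2). The 2 zero-fiber WT libraries at 2900 and above, the same for all 4 genes, are both female.

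The same gene separated zero fiber from control in WT mice. Its range there was 12.8 to 52.4 CPM on zero fiber and 7.20 to 12.2 CPM on control, with no overlap, and the log2 fold change was 1.62 (SE 0.22). Among the 4 genes it was the only one whose ranges did not overlap in that comparison. The share of all genes without overlap there was not computed. The share of all genes tested that passed by adjusted p, a different criterion, was 0.00825% there. The choice of the genes used that comparison, so nothing is read from the lack of overlap. Zero-fiber WT libraries mostly had title numbers below 2900 (4 of 6), control WT libraries mostly higher ones (7 of 8). Within the higher numbers the difference in mean log2 CPM was 0.96 (2 against 7 libraries) and the ranges still did not overlap. Those 2 zero-fiber libraries are both female. Both zero-fiber WT males have numbers below 2900 and all 4 control WT males higher ones. In males, diet and title number thus cannot be told apart here. In AD mice the log2 fold change of zero fiber against control was smaller, 0.73 (SE 0.23), and the groups overlapped, with 0 to 16.6 CPM against 3.68 to 11.3 CPM. Among all genes, 0.0578% passed there. Against HAMSAB, where 0.239% of all genes passed in AD, it was 0.06 (SE 0.22) in AD and 0.86 (SE 0.21) in WT mice. HAMSAB libraries had 7.19, 12.4 and 15.1 CPM in AD and 9.56, 16.4 and 26.2 CPM in WT mice (lowest, median and highest).

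Gm48611 had the highest CPM of the 4 in WT mice on zero fiber, with 32.4, 56.3 and 72.7 CPM (lowest, median and highest of 6). The 8 AD libraries on that diet had 18.6, 24.8 and 51.1 CPM, and the groups overlapped. The 2 highest AD values, 51.1 and 46.4 CPM, came from the library that goes against its label and the one of lowest depth, where 46.4 CPM is 3 reads. Without both, the AD libraries reached at most 37.3 CPM and averaged 25.2 ± 6.41 CPM (SD, n = 6), against 55.2 ± 14.2 CPM in WT (SD, n = 6). The log2 fold change was -1.03 (SE 0.22), and -1.20 without both. By title number the difference in mean log2 CPM was -0.996 below 2900 (3 against 4 libraries, without the one of lowest depth) and -0.69 at 2900 and above (4 against 2). In WT mice, zero fiber stood 0.88 (SE 0.20) on the log2 scale above HAMSAB and 0.36 (SE 0.20) above control. The difference from HAMSAB in mean log2 CPM was 1.14 below 2900 (4 against 5 libraries) and 0.19 at 2900 and above (2 against 3). HAMSAB WT libraries had 19.6, 32.6 and 46.1 CPM and control WT libraries 30.04, 38.6 and 90.0 CPM, so all 3 WT groups overlapped. The 90.0 CPM came from control_WT_F replicate 1, the highest value of the gene in the series and 25.5% of its group's summed level. In AD mice the log2 fold changes of zero fiber were -0.37 (SE 0.21) against HAMSAB and -0.27 (SE 0.21) against control.

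Gm44187 ran the other way by genotype on zero fiber. AD libraries had 0, 24.4 and 57.3 CPM and WT libraries 10.98, 18.6 and 22.4 CPM (lowest, median and highest), which overlapped. The AD range reached below the WT range only through the 0 in the library of lowest depth; the next lowest AD level was 15.2 CPM. Single AD libraries stood far apart, with 31.3, 27.8, 57.3 and 15.2 CPM in females and 20.96, 0, 41.5 and 17.3 CPM in males. The log2 fold change was 0.84 (SE 0.32), and 0.54 without zero_fiber_AD_M replicate 3, which moved it most. The difference in mean log2 CPM without the library of lowest depth was 0.78 among title numbers below 2900 (3 against 4 libraries) and 0.56 among the others (4 against 2). By diet, zero fiber stood 1.51 (SE 0.31) above control in AD mice, where control libraries had 4.69, 11.02 and 17.9 CPM. In WT mice zero fiber stood 1.41 on the log2 scale below HAMSAB (log2 fold change -1.41, SE 0.31), with a range of 10.98 to 22.4 CPM against 21.5 to 65.5 CPM, which overlapped by 1 library on each side. Within title numbers these groups did not overlap, with differences in mean log2 CPM of -1.48 (4 against 5 libraries below 2900) and -0.82 (2 against 3). The share of all genes without overlap there was not computed. The choice of the genes used these libraries, so nothing is read from the lack of overlap. Against control in WT mice the log2 fold change was -0.32 (SE 0.32).

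Gm38142 was the least abundant, with at most 51 reads in any library. On zero fiber its lowest, median and highest levels were 0.619, 3.81 and 15.5 CPM in AD and 2.79, 5.40 and 11.4 CPM in WT libraries. The highest AD level was 1 read in the library of lowest depth, and the next, 9.79 CPM, came from the library that goes against its label. Without both, the AD libraries averaged 2.93 ± 1.56 CPM (SD, n = 6), against 6.22 ± 3.55 CPM in WT (SD, n = 6). The log2 fold change of AD against WT was -0.98 (SE 0.38), and -1.32 without both. By title number the difference in mean log2 CPM was 0.07 below 2900 (4 against 4 libraries), -0.39 there without the library of lowest depth, and -0.96 at 2900 and above (4 against 2). Zero fiber against control gave 0.90 (SE 0.34) in WT mice, with 2.79 to 11.4 CPM against 1.27 to 5.92 CPM, and 0.56 (SE 0.42) in AD mice, with 0.619 to 15.5 CPM against 1.02 to 3.45 CPM. The value in AD mice fell to 0.23 without both libraries. Against HAMSAB the log2 fold changes were -0.36 (SE 0.37) in AD and 0.30 (SE 0.32) in WT mice, both within about 1 SE of 0.

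**Figure D2:**
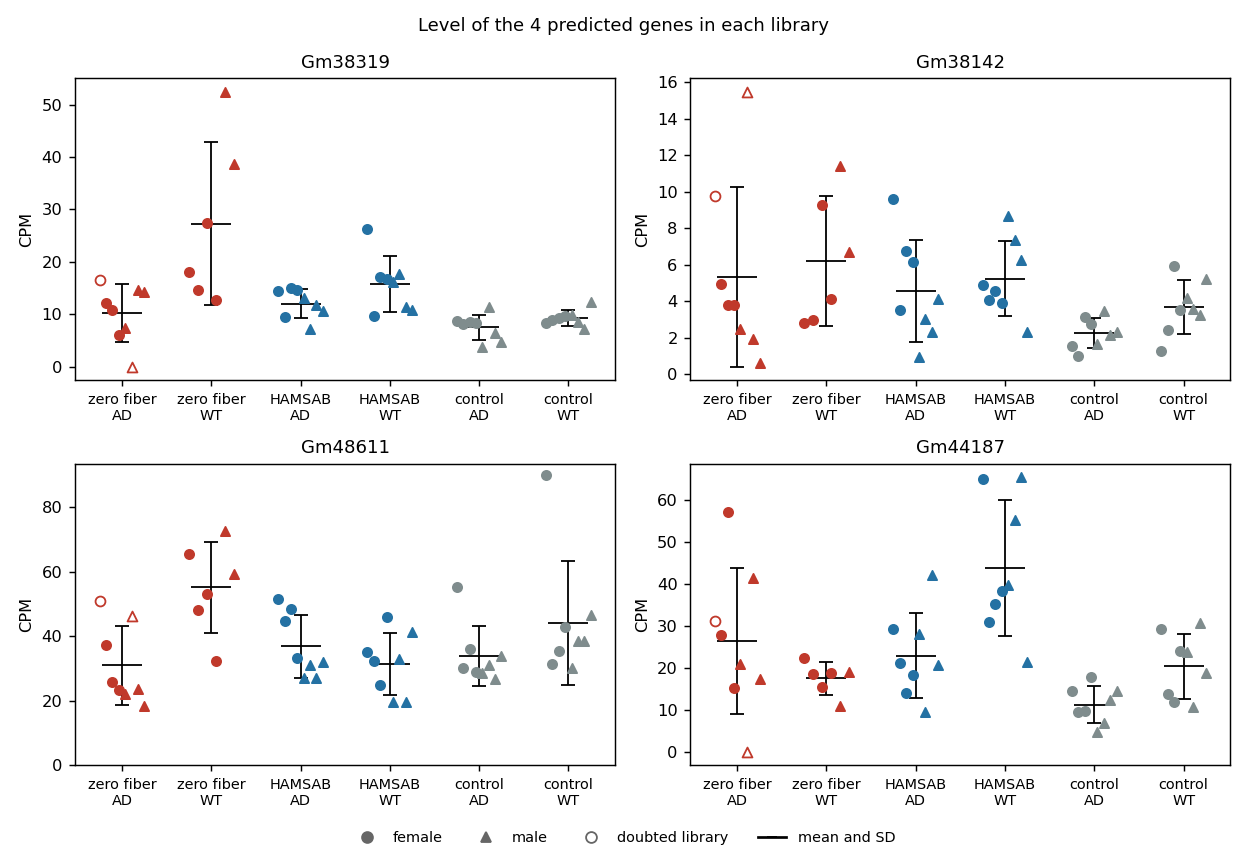
Level of each predicted gene in CPM in every library, by diet and genotype, with the mean and SD of each group (8 libraries, or 6 for zero-fiber WT). Circles are females and triangles males; open symbols are the library of lowest depth and the one whose sex genes go against its label. Gm38319 peaks in the zero-fiber WT males (52.4 and 38.6 CPM), Gm44187 in HAMSAB WT.

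The comparisons that did not use zero-fiber libraries were tested with edgeR's quasi-likelihood test and Benjamini-Hochberg adjustment over all 12121 genes. Gm44187 was the only one of the 4 genes to pass in any of the 6. It was lower in AD than in WT mice on HAMSAB: 9.46, 20.97 and 42.2 CPM in AD against 21.5, 39.04 and 65.5 CPM in WT libraries (lowest, median and highest of 8 each), which overlapped. The log2 fold change was -1.02 (SE 0.26), with an edgeR adjusted p of 0.0293, and 1.68% of all genes tested passed in that comparison. Medians of some other marker lists also differed between these groups, though their ranges overlapped and no test was made. For choroid plexus (4 of 4 genes in the table) the lowest, median and highest sums were 84.0, 170 and 288 CPM in AD against 20.5, 86.8 and 175 CPM in WT libraries. For endothelial cells (4 of 4) they were 25.8, 80.03 and 100 CPM in AD, with Cldn5 and Ly6c1 at 0, against 27.2, 38.4 and 96.8 CPM in WT, with Ly6c1 at 0. For perivascular macrophages (7 of 7) they were 18.2, 33.9 and 44.5 CPM in AD against 27.9, 49.7 and 75.6 CPM in WT. Medians in AD and WT were closer for astrocytes (238.9 and 253.7 CPM) and oligodendrocytes (122.5 and 108.8 CPM). The part of other cell types in the difference of Gm44187 was not tested. In mean log2 CPM the difference was -1.05 among title numbers below 2900 (5 against 5 libraries) and -0.80 among those of 2900 and above (2 against 3). The call was near the threshold. It was lost in DESeq2 (adjusted p = 0.0503) and with the title-number series as a term in edgeR (0.0525). Across the 7 alternatives other than leaving out 1 library, the adjusted p ran from 4.12e-09 to 0.0525. The lowest came from edgeR with no filter on low counts (log2 fold change -1.02, SE 0.15), and the next was 0.00427 in voom. The call was also lost in 7 of the 16 edgeR fits that left out 1 library. These were the fits without HAMSAB_AD_F replicate 3 (adjusted p = 0.0749), HAMSAB_AD_F replicate 4 (0.0696), HAMSAB_AD_M replicate 2 (0.0922), HAMSAB_AD_M replicate 4 (0.0756), HAMSAB_WT_F replicate 1 (0.129), HAMSAB_WT_M replicate 2 (0.0624) and HAMSAB_WT_M replicate 3 (0.0798). The direction held in every one, with log2 fold changes between -1.20 and -0.85.

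Gm44187 was also higher on HAMSAB than on control in WT mice, with 21.5, 39.04 and 65.5 CPM against 10.7, 21.3 and 30.8 CPM, which overlapped. The log2 fold change was 1.09 (SE 0.26) and the edgeR adjusted p 0.0486, where 0.281% of all genes passed. Within title numbers the difference in mean log2 CPM was 0.73 below 2900 (5 libraries against 1) and 0.76 at 2900 and above (3 against 7). With the title-number series as a term the adjusted p was 0.18, without the 2 doubted zero-fiber libraries 0.0506, and with only the libraries compared 0.0736, against a lowest value of 1.68e-09 with no filter on low counts. Leaving out 1 library lost the edgeR call in 11 of 16 fits. On the HAMSAB side these were WT_F replicate 1 (adjusted p = 0.183) and replicate 4 (0.0594), and WT_M replicate 1 (0.087), replicate 2 (0.119) and replicate 3 (0.107). On the control side they were WT_F replicate 2 (0.127), replicate 3 (0.1) and replicate 4 (0.0513), and WT_M replicate 2 (0.078), replicate 3 (0.0665) and replicate 4 (0.0807). The log2 fold change stayed between 0.94 and 1.22 in these fits. Both calls of this gene rest on the HAMSAB WT libraries. These were also the other side of zero fiber against HAMSAB in WT mice, where the gene had -1.41. The choice of the genes used that comparison, so the calls are independent neither of the choice nor of each other.

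In AD mice the gene had 9.46, 20.97 and 42.2 CPM on HAMSAB and 4.69, 11.02 and 17.9 CPM on control, a log2 fold change of 1.06 (SE 0.30) that missed the threshold (edgeR adjusted p = 0.0831). AD against WT on control gave -0.99 (SE 0.30), with 4.69 to 17.9 CPM against 10.7 to 30.8 CPM. There the edgeR adjusted p was 0.835, and 0.0% of all genes passed. Within title numbers the difference in mean log2 CPM was -1.74 below 2900 (4 libraries against 1) and -0.41 at 2900 and above (4 against 7). The difference between the genotype effects on HAMSAB and on control was -0.02 (SE 0.44, edgeR adjusted p = 1.0), so unequal genotype effects on the 2 diets were not detected at this precision.

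The other 3 genes did not pass in any of these comparisons. For HAMSAB against control, the log2 fold change of Gm38319 in edgeR was 0.67 (SE 0.22, adjusted p = 0.138) in AD and 0.76 (SE 0.21, adjusted p = 0.0831) in WT mice. Gm38142 gave 0.93 (SE 0.34, adjusted p = 0.185) in AD and 0.61 (SE 0.32, adjusted p = 0.406) in WT mice. For Gm48611 the values were 0.10 (SE 0.19, adjusted p = 0.844) in AD and -0.52 (SE 0.19, adjusted p = 0.186) in WT mice. Background rates were 0.0743% for HAMSAB against control in AD, 0.066% for females against males and 0.0% for the difference between the genotype effects. In edgeR, none of the 4 genes passed in those, nor in AD against WT on control. At an unadjusted p under 0.05, edgeR had 3 of the 4 in HAMSAB against control in AD, where 15.3% of all genes were under it, and 2 in AD against WT on control, where 5.4% were. Gm48611 alone was under it for females against males (8.22% of all genes) and for the difference between the genotype effects (5.53%). DESeq2 and voom called none in these 4 comparisons. By sex, Gm48611 had a log2 fold change of 0.40 (SE 0.13) for females against males, with an edgeR adjusted p of 0.355.

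**Figure D3:**
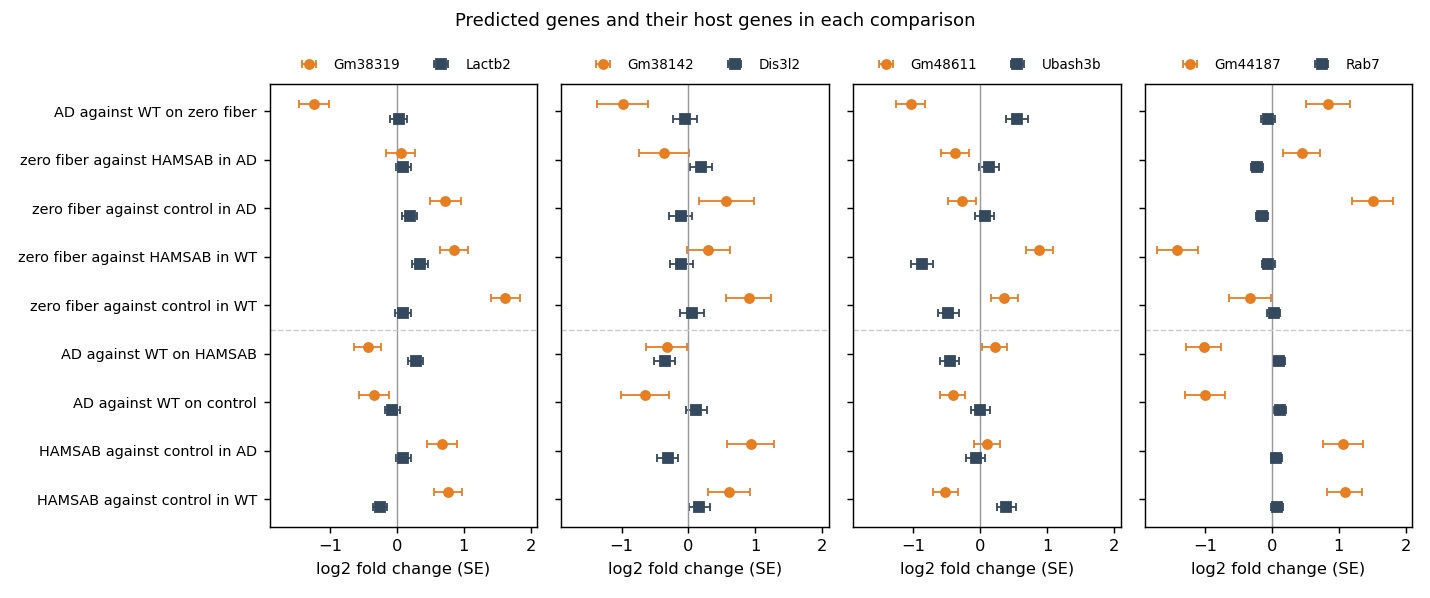
Log2 fold change with its SE of each predicted gene (orange circles) and its host gene (dark squares) in 9 comparisons, from 1 edgeR fit over 46 libraries. Above the dashed line are the comparisons that chose the predicted genes; below it Gm44187 reaches -1.02 for AD against WT on HAMSAB while Rab7 stays near 0.

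Lactb2, Dis3l2 and Rab7 passed in none of the comparisons. Lactb2 averaged 83.5 ± 13.5 CPM in AD and 83.4 ± 12.8 CPM in WT mice on zero fiber (SD, n = 8 and 6), a log2 fold change of 0.03 (SE 0.12, edgeR adjusted p = 1.0), where Gm38319 had -1.23. For zero fiber against HAMSAB in WT mice it gave 0.35 (SE 0.12, edgeR adjusted p = 0.157), the same sign as Gm38319 with 0.86. Rab7 averaged 186 ± 23.5 CPM in AD and 171 ± 23.8 CPM in WT mice on HAMSAB (SD, n = 8 each), a log2 fold change of 0.11 (SE 0.09, edgeR adjusted p = 0.681), where Gm44187 had -1.02. Dis3l2 gave 0.06 (SE 0.17, edgeR adjusted p = 0.978) for zero fiber against control in WT mice, where Gm38142 had 0.90.

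Ubash3b and Gm48611 differed with opposite sign, both between genotypes on zero fiber and between zero fiber and HAMSAB in WT mice. On zero fiber it had 201, 387 and 557 CPM in AD and 195, 263 and 324 CPM in WT libraries (lowest, median and highest), while Gm48611 was lower in AD. In WT mice it fell on zero fiber relative to HAMSAB, with 195 to 324 CPM against 315 to 786 CPM, a log2 fold change of -0.86 (SE 0.16, edgeR adjusted p = 0.00362), in a comparison where 2.19% of all genes passed. The call was lost without zero_fiber_WT_M replicate 2 (log2 fold change -0.71, adjusted p = 0.102) and held in the other 13 fits that left out 1 library, with adjusted p of 0.0192 or less. Gm48611 had 0.88 in the same comparison. AD against WT gave 0.54 (SE 0.16, edgeR adjusted p = 0.937) for Ubash3b on zero fiber and -0.45 (SE 0.14, edgeR adjusted p = 0.092) on HAMSAB.

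Across the 32 HAMSAB and control libraries, the log2 levels of Gm48611 and Ubash3b were negatively related, with Pearson's r = -0.53 (permutation test, adjusted p = 0.0122) and Spearman's rho = -0.62 (permutation test, adjusted p = 0.00165). These p-values are two-sided, from 100000 permutations, and adjusted over 26 relations. Without the 2 libraries farthest from the median of Ubash3b, r was -0.58 (permutation test, adjusted p = 0.00624). It was -0.46 among 15 libraries with title numbers below 2900 and -0.68 among 16 of 2900 and above, and neither passed the adjusted threshold (permutation test, adjusted p = 0.27 and 0.0634). With values centred on their group means r was -0.44 (permutation test, unadjusted p = 0.0118, adjusted p = 0.128). The zero-fiber libraries gave r = -0.43 over 14, as a description. Gm38319 with Lactb2 (r = -0.16), Gm38142 with Dis3l2 (-0.14) and Gm44187 with Rab7 (-0.01) showed no relation that passed, with adjusted p of 0.599, 0.647 and 0.989 by the same permutation test. On zero fiber, over the 13 libraries left without the one of lowest depth, r was 0.14, 0.35 and -0.13 for these pairs.

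**Figure D4:**
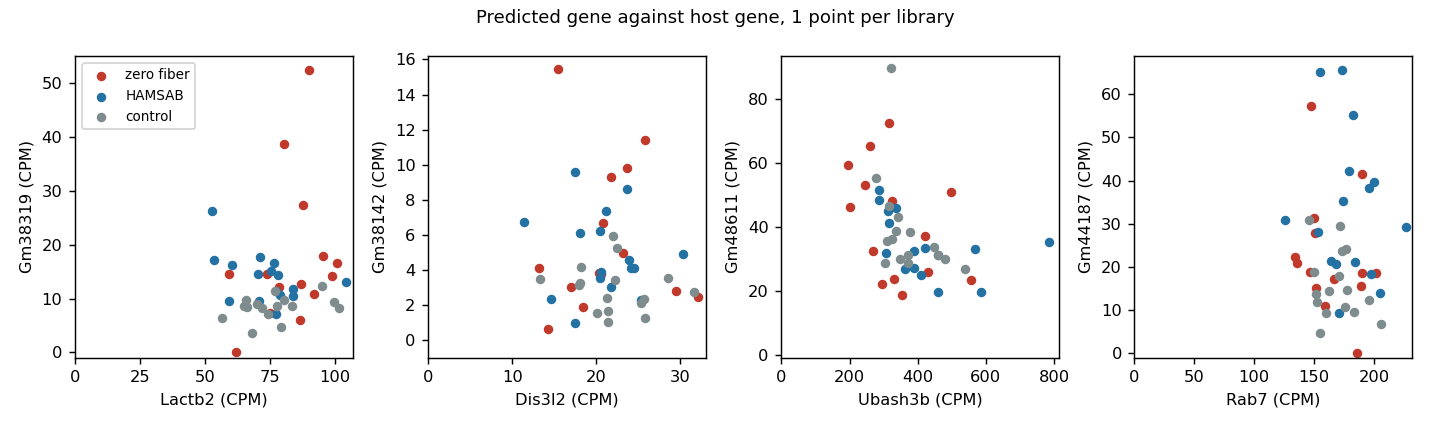
Level of each predicted gene against its host gene in CPM, 1 point per library, coloured by diet. Gm48611 is low where Ubash3b is high (Spearman's rho -0.62 over the 32 HAMSAB and control libraries), and the other pairs show no such order.

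Scaled by exon length, the predicted genes stood between 8.64% and 118% of their hosts in the 6 groups of diet and genotype. A host's length took in the exons of all its annotated transcripts, 8901 bases over 6 transcripts for Dis3l2. Exons that are little used in these cells would lower the host's level per kb and raise these shares. In AD and WT mice on zero fiber, Gm38319 stood at 44.2% and 118% of the level per kb of Lactb2, and at 35.7% and 42.5% on control. Gm48611 stood at 23.1% and 59.1% of Ubash3b on zero fiber in AD and WT mice, and in WT mice at 18.8% on HAMSAB and 34.4% on control. Gm44187 reached 22.4% and 13.9% of Rab7 on zero fiber in AD and WT mice, 16.7% and 34.7% on HAMSAB, and 8.64% and 17.01% on control. For Gm38142 the share of Dis3l2 was 63.8% and 72.9% on zero fiber in AD and WT mice and 24.4% and 43.4% on control, and the 63.8% in AD became 34.1% without the 2 doubted libraries. The ratio of each predicted gene to its host thus varied between groups by a factor larger than the host's own level did.

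The table holds no split of exon and intron reads, so unspliced RNA could only be approached through other genes. A first measure was the share of counts on all annotated genes that lie wholly inside an intron of another gene on the same strand, 5284 in the table. That share ran from 1.10% to 1.69% of counts over the 46 libraries and averaged 1.36% ± 0.18 in AD and 1.39% ± 0.17 in WT mice on zero fiber (SD, n = 8 and 6). On HAMSAB it averaged 1.33% ± 0.07 in AD and 1.34% ± 0.14 in WT mice, and on control 1.25% ± 0.09 in AD and 1.30% ± 0.13 in WT mice (SD, n = 8 each). The ranges of all groups overlapped. Among the 725 tested intronic genes other than the 4, the median log2 fold change of AD against WT on zero fiber was -0.07, with 290 above 0, against -0.001 over all genes tested. Gm38319, Gm48611 and Gm38142 had -1.23, -1.03 and -0.98 there. For zero fiber against control the median over intronic genes was 0.18 in AD and 0.11 in WT mice, against -0.01 over all genes in both, and 1.62 for Gm38319 in WT mice. Of the 725 intronic genes, 501 were above 0 there in AD and 448 in WT mice. The 4 genes were chosen on zero-fiber libraries, so nothing is read from the gap in these comparisons. For AD against WT on HAMSAB the median was -0.10, against -1.02 for Gm44187. For AD against WT on control it was -0.15, with 217 intronic genes above 0 and 508 below. There the median over all genes was -0.001, and Gm44187 had -0.99.

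Total counts and the intronic share passed for none of the 4 genes across the 32 HAMSAB and control libraries. Total counts gave r between -0.02 and 0.15, and the intronic share between 0.22 and 0.38, with permutation adjusted p of 0.113 or more for the latter. For Gm48611 and the intronic share, r centred on group means was 0.51 (permutation test, unadjusted p = 0.00281, adjusted p = 0.0731). It was 0.53 below 2900 and 0.61 at 2900 and above (permutation adjusted p = 0.194 and 0.0811). Without the 2 libraries farthest from the median of that share it was 0.24 (permutation adjusted p = 0.434). Gm44187 was related to the share of counts on other predicted genes (Pearson's r = 0.46, permutation adjusted p = 0.0351), but not by rank (Spearman's rho = 0.43, permutation adjusted p = 0.0678). The summed level of 12 RNAs that stay in the nucleus, led by Malat1 and Neat1, went with 2 of the genes. For Gm38319 r was 0.62 and rho 0.54 (permutation test, adjusted p = 0.00312 and 0.0109). For Gm44187 r was 0.47 and rho 0.47 (permutation test, adjusted p = 0.0335 and 0.0404). Centred on group means, r was 0.38 for Gm38319 and 0.07 for Gm44187, and neither passed (permutation test, adjusted p = 0.198 and 0.894). Without the 2 libraries farthest from the median of the nuclear sum, r was 0.56 for Gm38319 (permutation adjusted p = 0.00864) and 0.44 for Gm44187 (0.0743). The 13 zero-fiber libraries without the one of lowest depth are given as a description, with no test. For Gm38319, Gm38142, Gm48611 and Gm44187 in turn, r was 0.25, 0.70, 0.37 and 0.09 with the nuclear sum. With the intronic share it was 0.44, 0.64, 0.55 and 0.01, and with total counts 0.32, 0.41, 0.39 and 0.45. Over all 14 zero-fiber libraries, Gm44187 and total counts gave r = 0.91. The part of nuclear RNA in the calls of Gm44187 was not tested: on HAMSAB the nuclear sum averaged 16190 ± 1465 CPM in AD and 19770 ± 4628 CPM in WT mice (SD, n = 8 each), and on control 14180 ± 2683 CPM in WT mice (SD, n = 8). None of the 8 listed RNAs that were tested was called by edgeR in either comparison that Gm44187 passed. The closest was Malat1 for HAMSAB against control in WT mice (log2 fold change 0.47, SE 0.12, edgeR adjusted p = 0.0622). In that comparison all 8 were above 0, with a median log2 fold change of 0.42, against -0.002 over all genes tested. For AD against WT on HAMSAB, 6 of the 8 were below 0, with a median of -0.20, against 0.001 over all genes.

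In the introns of Dis3l2, 3 other predicted genes were tested. Gm38142 had been chosen on zero-fiber libraries and these had not, so nothing is read from their gap on zero fiber. There the log2 fold change of AD against WT was -0.04 (SE 0.40) for Gm37017, 0.59 (SE 0.44) for Gm38021 and -0.17 (SE 0.34) for Gm37447, each with an edgeR adjusted p of 1.0, where Gm38142 had -0.98. Gm37017 passed in AD against WT on HAMSAB, as Gm44187 did, with 2.46, 6.50 and 12.3 CPM in AD against 8.51, 13.2 and 24.6 CPM in WT libraries (log2 fold change -1.10, SE 0.29, edgeR adjusted p = 0.0373). It also passed for HAMSAB against control in WT mice (log2 fold change 1.39, SE 0.30, edgeR adjusted p = 0.0326). Gm38142 had the same sign in both, with -0.33 and 0.61. The values of Gm37017 were close to those of Gm38142 for HAMSAB against control in AD (0.86 and 0.93), AD against WT on control (-0.58 and -0.65) and zero fiber against control in AD (0.57 and 0.56). In these comparisons Gm38021 had -0.07, -0.05 and 0.21, and Gm37447 had -0.165, 0.08 and -0.055. Gm37017 and Gm38142 were far apart in WT mice for zero fiber against control (0.04 and 0.90) and against HAMSAB (-1.35 and 0.30). In the latter, Gm37017 passed (SE 0.34, edgeR adjusted p = 0.0261), as did 2.19% of all genes.

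Levels of the 4 predicted genes were also compared with each other. Over the 32 HAMSAB and control libraries, Gm38319 went with Gm44187 (r = 0.67, permutation adjusted p = 0.00052) and with Gm38142 (r = 0.57, permutation adjusted p = 0.00676), in relations computed after the data had been seen. Centred on group means these were 0.29 and 0.36 and did not pass (permutation adjusted p = 0.328 and 0.226). Gm48611 was unrelated to each of the others, with r between -0.13 and -0.02. On zero fiber, as a description, r was 0.78 for Gm38319 with Gm48611, 0.73 for Gm38142 with Gm48611, 0.56 for Gm38319 with Gm38142 and -0.36 for Gm38319 with Gm44187 over the 13 libraries without the one of lowest depth. That 1 library moved these values: over all 14 they were 0.33, 0.70, -0.12 and 0.67.

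Genes with the most similar levels were ranked by Spearman's rho over the 45 libraries with more than 100000 counts, zero-fiber ones included, as a description. For Gm44187 these were Prpf39 (rho = 0.89), a splicing factor that works with the U1 particle, 2310035C23Rik (0.87) and Micu3 (0.86), a regulator of mitochondrial calcium uptake. Prpf39 averaged 113 ± 36.04 CPM in AD and 156 ± 39.6 CPM in WT mice on HAMSAB and 88.2 ± 17.6 CPM in AD and 110 ± 29.95 CPM in WT mice on control (SD, n = 8 each). For Gm48611 the closest was Sorl1 (0.71), which encodes a sorting receptor for the amyloid precursor protein and lies 853 kb away on the same chromosome and strand. It averaged 22.7 ± 11.7 CPM in AD and 36.1 ± 12.8 CPM in WT mice on zero fiber (SD, n = 8 and 6). Gm27639 (0.62) and Gm48887 (0.59) came next. Gm38319 was closest to Txlng (0.70), Gm15928 (0.69) and Zfp207 (0.67), and Gm38142 to A530041M06Rik (0.72), Txlng (0.71) and Gm26909 (0.70). By the same measure Ubash3b ranked 12115 of the genes for Gm48611, and Lactb2, Dis3l2 and Rab7 ranked 3898, 5943 and 7456 for their own predicted genes. Intronic genes made up 33, 23 and 36 of the 100 closest to Gm38319, Gm38142 and Gm48611, and 8 of those closest to Gm44187, while 6.01% of all genes tested are intronic.

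**Figure D5:**
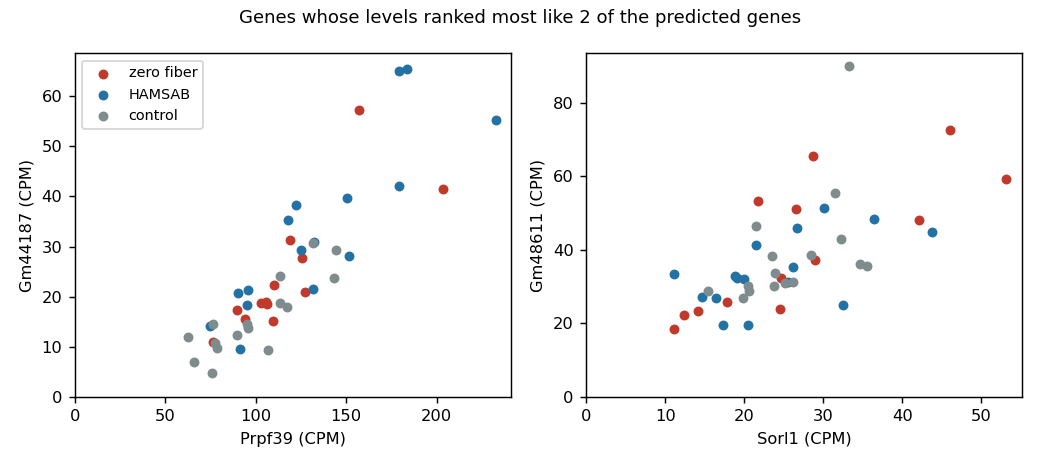
Gm44187 against Prpf39 (left) and Gm48611 against Sorl1 (right) in CPM, 1 point per library without the one of lowest depth, coloured by diet. Gm44187 and Prpf39 are high in the same libraries (rho 0.89 over 45 libraries); control_WT_F replicate 1 stands apart at 90.0 CPM of Gm48611.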

How the data were processed

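Per the labels' protocols, microglial RNA was extracted with the RNeasy Micro kit on a QIAcube and made into Illumina libraries. Per the submitters' processing notes, STAR 2.5.2b and featureCounts 1.5.2 were used with mm10 (GRCm38); the sources used here do not give the strand setting, the annotation release or the treatment of reads with more than 1 placement. The deposited values are raw read counts per gene, in 1 table of 46 libraries. Genes were placed with GENCODE M21.

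The counts were fitted in edgeR 4.0.16 (R 4.3.3): filterByExpr by group, TMM factors and quasi-likelihood tests on 12 group means (diet, genotype and sex), with contrasts that weight the sexes equally and Benjamini-Hochberg adjustment over 12121 genes. Genes with an adjusted p under 0.05 were called. CPM (counts per 1000000) take as total the counts on tested genes times the TMM factor. SE is the log2 fold change divided by the square root of F. The p-values measure the spread between libraries, which may be technical, since nothing says that these are separate mice. The limit for a count of 0 is 3 counts and covers counting error only. Relations used log2 CPM with a prior count of 2 and permutation tests in scipy 1.17.1.

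The 4 genes, the lists and the tests were chosen with earlier results of these data known. Named besides them were the genes that overlap them or lie next to them, the tested predicted genes in the same host, 3 genes of highest Spearman's rho for each, and the nuclear RNA list. Of the neighbouring genes, Tram1 and Rpn1 were tested and not called, and Xkr9 and H1fx did not pass the filter. Alternatives were DESeq2 1.42.0 as test or for size factors, limma 3.58.1 voom with quality weights, no filter, a term for the title-number series, and left-out libraries. In data simulated for AD against WT on HAMSAB (11890 genes), edgeR recovered 79.8% of genes changed by 1 on the log2 scale and 96.9% of those changed by 2, with 6 false among 179 calls. The changed genes were drawn from all levels and no other group was changed. These rates therefore need not hold for genes of low count such as Gm38142.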

Additional observations from a re-analysis of the deposited data

Results flagged for a closer look

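In 44 groups of 4 libraries (each predicted gene in each group of 1 diet, genotype and sex), 2 had a library standing apart by Dixon's criterion; chance gives about 1 in 20 groups. Gm38319 was low in HAMSAB_AD_F replicate 2, at 9.45 CPM, where the other 3 libraries of the group had 14.4, 15.1 and 14.6 CPM. Gm38142 was high in zero_fiber_AD_M replicate 2, at 15.5 CPM, which is 1 read in the library of lowest depth. With CPM on total counts, 3 of the 44 groups stood out.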

How the results depend on the processing

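Over 68 tested pairs of a gene (the 4 predicted genes and 4 hosts) and a comparison, 1661 of 1795 alternatives kept the direction and the side of the threshold, 25 lost a call, 16 gained one and 93 changed sign. For the predicted genes in zero-fiber comparisons, 20 pairs without a test, all 435 alternatives moved the value by less than 1 SD between libraries. That SD is of single libraries within groups and takes in the library of lowest depth. A contrast of group means could hardly move so far, so nothing is read from this count. Some values did move within that bound, as given above for Gm38142 and Gm44187. In the AD against WT comparison on HAMSAB, Gm44187 was the 1 predicted gene called; 0 were called in the DESeq2 test and with the title series as a term, and 0 to 1 when 1 library was left out. For HAMSAB against control in WT mice, 1 was called, against 3 with no filter on low counts, 0 with the title series as a term, without the 2 doubted libraries or with only the libraries compared, and 0 to 2 when 1 library was left out. With no filter, 1 was called for AD against WT on control, 1 for HAMSAB against control in AD and 1 for females against males, where edgeR with the filter called 0; leaving out 1 library gave 0 to 1 for HAMSAB against control in AD. Of the relations that passed, the 1 with a host was 0 after centring on group means and within either range of title numbers. Those with shares, nuclear RNA and depth were 0 under the same settings and 1 without the 2 farthest libraries. Pairs of predicted genes were 0 after centring and at 2900 and above, and 1 below 2900. No paired analysis was possible because the replicate numbers were given in accession order and pair no libraries.

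Sign changes concerned values near 0, none of them called. With the title series as a term, the log2 fold change was -0.009 for Lactb2 (AD against WT, zero fiber), -0.035 for Dis3l2 (zero fiber against control, WT), -0.028 for Ubash3b (AD against WT, control), 0.018 for Gm38142 (females against males) and 0.111 for Gm44187 (difference of the genotype effects on HAMSAB and control). Ubash3b for AD against WT on control was -0.003 with DESeq2 size factors and in the DESeq2 test, -0.01 with no filter and -0.004 in voom. For females against males, voom gave -0.02 for Gm44187 and -0.006 for Rab7, and with no filter the difference of the genotype effects was 0.009 for Rab7. Leaving out 1 library gave, for AD against WT on zero fiber, -0.198 to 0.07 for Dis3l2 and -0.046 to 0.07 for Lactb2; on control, -0.061 to 0.073 for Ubash3b. For zero fiber against control in WT mice it gave -0.068 to 0.138 for Dis3l2 and -0.005 to 0.088 for Rab7, and against HAMSAB -0.104 to 0.008 for Rab7. For females against males the ranges were -0.099 to 0.072 for Gm38142, -0.072 to 0.099 for Gm44187 and -0.015 to 0.036 for Rab7. The difference of the genotype effects ran from -0.218 to 0.123 for Gm38319, -0.204 to 0.14 for Gm44187 and -0.062 to 0.041 for Rab7. The cause of these changes was not tested.

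Over all genes, the number called moved by more than 1.5 times in most comparisons. The edgeR fit called 1 gene for AD against WT on zero fiber (0 to 93 in the 7 alternatives), 29 and 265 for zero fiber against HAMSAB in AD and WT (25 to 204 and 254 to 505), and 7 and 1 for zero fiber against control in AD and WT (0 to 269 and 1 to 183). It called 204 for AD against WT on HAMSAB (163 to 464), 0 on control (0 to 149), 9 and 34 for HAMSAB against control in AD and WT (9 to 357 and 1 to 433), 8 for females against males (7 to 116) and 0 for the difference of the genotype effects (0 to 66). Without zero_fiber_WT_M replicate 2, zero fiber against HAMSAB in WT had 1 call. Depth limits Gm38142 most, and in zero_fiber_AD_M replicate 2 a single read decides a level of any of the 4 genes.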
